A study of Homo sapiens with 8 samples.

Results

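HCT116, a human colorectal cancer cell line, was followed in a model of tumour self-seeding. Cells that had been in the blood were set against primary tumour cells. The first side held 5 libraries, 3 of tumour self-seeded cells (TSC) and 2 of circulating tumour cells (CTC). The other side held the 3 libraries of primary tumour cells (PC), so all 8 libraries of the series were used. Sides were assigned from the sample titles alone. The labels give the primary tumour as the tissue of TSC and PC, and blood as that of CTC. All 3 groups share the same line, and no other genotype or drug treatment is labelled. The host animal, the number of animals and the way in which the 3 kinds of cell were told apart are not stated in any source used here. Liver cancer appears in the series title, but every sample is labelled with this colorectal line.

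In self-seeding, tumour cells that have entered the circulation return to the tumour from which they came. A carcinoma cell in blood loses contact with matrix and neighbours, meets shear, platelets and leukocytes, and leaves the poorly perfused and inflamed tissue of a tumour. Integrin and junction signals, growth factor feedback, oxygen sensing and interferon signalling are among the programmes that such a change of surroundings can touch. The comparison asks which transcripts TSC and CTC shared against PC.

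Total RNA was depleted of ribosomal RNA and counted per gene. Totals ranged from 4578869 to 19264595 counts in 7 libraries, and CTC replicate 1 held 957607. A count of 0, with 3 counts as the limit it allows, therefore permitted up to 2.99 CPM (the per-library unit that corrects counts for depth) in CTC replicate 1 and at most 0.668 CPM elsewhere, counting error only. Epithelial markers of a carcinoma line were high in all 8 libraries, with EPCAM between 391 and 616 CPM and the keratin gene KRT8 between 2563 and 4896 CPM. The CTC libraries also carried transcripts of blood cells, described at the end of these results. Nothing in the labels says that replicates came from separate animals or cultures, so the spread behind each p-value is that between libraries and may be technical.

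Between cells that had been in the blood and primary tumour cells, 32 genes differed, 17 of them higher and 15 lower in TSC and CTC. Among rises with all 5 TSC and CTC libraries above PC, the largest was in TM4SF1, a tetraspan protein of the cell surface. Next came the tubulin-binding gene TPPP3, the lipid phosphatase gene PLPP1, the secreted carboxypeptidase gene CPA4 and the calcineurin inhibitor gene RCAN1. FGFBP1 had a log2 fold change of 4.07, larger than that of PLPP1, but lay below PC in CTC replicate 1. The falls joined 5 interferon-response genes with HES1, CCN1, BAMBI, DUSP6 and ANKRD37. The latter are known targets of Notch, YAP, TGF-beta, ERK and oxygen-sensing signals, in that order. Each was the only call in the gene list of its pathway, and pathway activity was not tested. The 32 genes are 0.224% of 14255 tested (0.119% higher, 0.105% lower), at an adjusted p under 0.05 (Benjamini-Hochberg, quasi-likelihood test of edgeR), the source of every adjusted p below. Of these, 29 differed at least 2-fold, and all 32 encode proteins. The median log2 fold change over all tested genes was 0.00, and 1776 genes reached an unadjusted p under 0.05, 883 higher and 893 lower.

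The number of calls moved with single libraries. It was 0 without PC replicate 1 (1126 at an unadjusted p under 0.05), 0 without PC replicate 3 (910 at an unadjusted p under 0.05) and 3 without PC replicate 2. Leaving out TSC replicate 1 gave 7 calls and leaving out TSC replicate 3 gave 18. It rose to 54 without CTC replicate 2, to 105 without CTC replicate 1 and to 355 without TSC replicate 2. No gene was called in all 8 of these fits. PLPP1, TPPP3 and TM4SF1 passed in 6 of 8, and BAMBI, CCN1, CPA4 and RCAN1 in 5.

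Each library was then checked by itself. In 30 of the 32 genes, all 5 TSC and CTC libraries lay on the same side of all 3 PC libraries, 15 above and 15 below. Among all tested genes this held for 8.88% (1266 genes), with 535 above (3.75%) and 731 below (5.13%), so the position alone is common. The exceptions were FGFBP1, in which CTC replicate 1 lay below PC, and MAN1A1, in which it lay within the PC range. CTC replicate 1 was the library nearest to PC in 20 of the 32 genes, 12 of 17 rises and 8 of 15 falls. It was at least 2-fold above the PC mean in 8 of the 17 raised genes, against 14 to 17 in the other 4 libraries. The same library was at least 2-fold below in 8 of the 15 lowered genes, against 11 to 15 elsewhere. CTC replicate 1 was also the shallowest library and the richest in leukocyte transcripts; the part of these in its smaller differences was not tested.

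**Figure D1:**
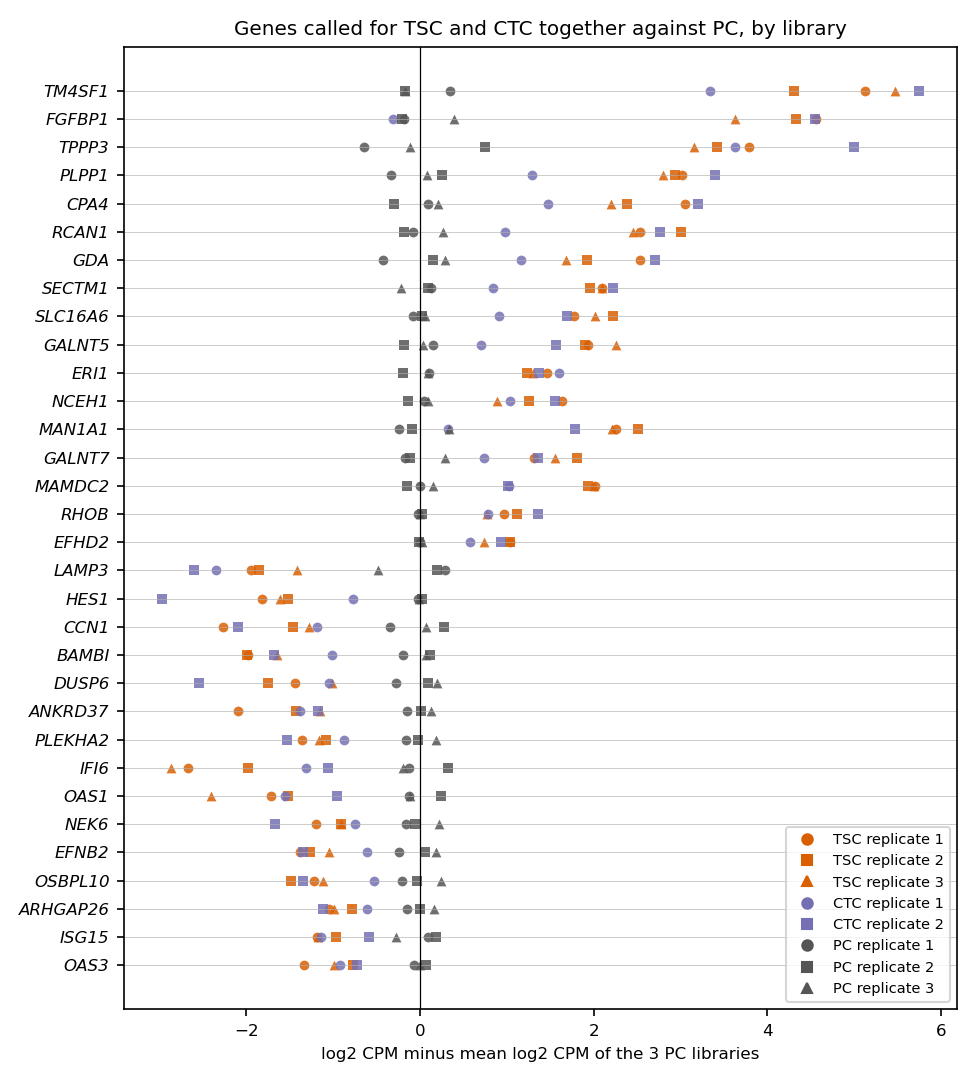
Log2 CPM of each library minus the mean of the 3 PC libraries, for the 32 called genes; colours mark groups and symbols replicates. In 30 genes all 5 TSC and CTC points lie on the same side of the PC points, and CTC replicate 1 is the nearest of them to PC in 20 genes.

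Below, the values of a gene are listed for TSC replicates 1 to 3, CTC replicates 1 and 2 and PC replicates 1 to 3, in CPM, and the log2 fold change is TSC and CTC together minus PC, ± SE (n = 5 and 3). TM4SF1, on chromosome 3 (149369022 to 149377649, GRCh38), encodes a membrane protein of tumour and endothelial cells that sits in thin cell protrusions. It was at 7.35, 4.09 and 9.41 CPM in TSC, at 1.99 and 11.4 CPM in CTC, and at 0.08, 0 and 0 CPM in PC. All 5 libraries thus held TM4SF1 reads while PC held a single read, 317 counts against 1. The change in the edgeR fit was 7.64 ± 0.92 (adjusted p = 0.00664). The ratio of pooled counts, scaled by library size, was 324, with an exact 95% interval of 57.7 to 12800. That interval treats each side as a single pool and covers counting error only. The value in CTC replicate 1 lies under the limit of that library and rests on few reads.

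TPPP3, a member of the tubulin polymerization-promoting family, was at 11.1, 8.61 and 7.14 CPM in TSC, 9.97 and 26.1 CPM in CTC, and 0.34, 1.20 and 0.57 CPM in PC. No library of either side overlapped the other, and the change was 4.20 ± 0.58 (adjusted p = 0.00955). RHOB, an endosomal small GTPase, stood at 274, 305 and 239 CPM in TSC and at 241 and 358 CPM in CTC, against a narrow 138 to 142 CPM in PC, a change of 1.02 ± 0.17 (adjusted p = 0.0277). EFHD2, a calcium-binding protein that associates with actin, was at 188 to 259 CPM against 124 to 128 CPM, a change of 0.88 ± 0.16 (adjusted p = 0.0372). In both genes all 5 libraries were above PC, which the rule for naming them required.

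Among secreted and surface proteins, CPA4, a zinc carboxypeptidase released from cells, measured 42.1, 26.4 and 23.2 CPM in TSC and 13.97 and 46.7 CPM in CTC, against 5.28, 3.96 and 5.71 CPM in PC. The lowest of the 5 was 2.44 times the highest PC value, and the change was 2.64 ± 0.35 (adjusted p = 0.00767). FGFBP1, a secreted carrier that frees fibroblast growth factors from matrix, was at 92.5, 78.8 and 48.4 CPM in TSC, at 2.99 and 92.1 CPM in CTC and at 3.27, 3.22 and 4.98 CPM in PC. Its change of 4.07 ± 0.60 (adjusted p = 0.0139) was therefore absent from CTC replicate 1, which lay below all 3 PC libraries. SECTM1, a secreted and transmembrane ligand of CD7, was low, at 3.99 to 10.7 CPM against 1.82 to 2.35 CPM, and rose by 2.06 ± 0.39 (adjusted p = 0.049).

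PLPP1, which removes the phosphate of lysophosphatidic acid at the cell surface, was at 43.7, 41.1 and 37.3 CPM in TSC, 13.0 and 56.7 CPM in CTC, and 4.11, 6.26 and 5.50 CPM in PC, a change of 2.91 ± 0.35 (adjusted p = 0.00664). All libraries but CTC replicate 1 exceeded 37 CPM, and none of the PC libraries exceeded 7 CPM. GDA, the guanine deaminase gene of purine breakdown, was at 114, 74.4 and 63.0 CPM in TSC, 43.9 and 128 CPM in CTC, and 14.5, 21.6 and 23.8 CPM in PC, a change of 2.10 ± 0.32 (adjusted p = 0.015). NCEH1, a cholesterol ester hydrolase, rose from 12.7 to 15.0 CPM in PC to 25.96 to 43.9 CPM (1.32 ± 0.23, adjusted p = 0.0316). SLC16A6, of the monocarboxylate transporter family, rose from 3.44 to 3.79 CPM to 6.98 to 17.7 CPM (1.89 ± 0.33, adjusted p = 0.0316). In these metabolic genes, too, no TSC or CTC library fell within the PC range, as the rule for naming them required.

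RCAN1, which binds and restrains the calcium-dependent phosphatase calcineurin and is induced by it, was at 96.7, 134 and 91.8 CPM in TSC, 32.9 and 114 CPM in CTC, and 15.7, 14.6 and 19.9 CPM in PC. The change was 2.52 ± 0.33 (adjusted p = 0.00767), and CTC replicate 1 again held the lowest of the 5 values. It was the only called gene of 19 tested members of a calcineurin and calcium entry list, whose median was -0.02.

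GALNT5 and GALNT7 encode transferases of mucin-type O-glycan synthesis. GALNT5 was at 14.3, 13.9 and 17.9 CPM in TSC, 5.99 and 10.97 CPM in CTC, and 4.02, 3.13 and 3.69 CPM in PC (1.85 ± 0.35, adjusted p = 0.0472). GALNT7 was at 81.6, 115 and 96.3 CPM in TSC, 54.9 and 84.1 CPM in CTC, and 29.2, 30.3 and 39.9 CPM in PC (1.40 ± 0.22, adjusted p = 0.023). Both kept all 5 libraries above PC, again a condition of being named. MAN1A1, a mannosidase that trims N-glycans, was at 474, 563 and 461 CPM in TSC and 342 CPM in CTC replicate 2, but at 124 CPM in CTC replicate 1, inside the PC range of 83.9 to 125 CPM (1.97 ± 0.36, adjusted p = 0.0399). ERI1, an exoribonuclease that trims histone mRNA, was at 26.9 to 34.9 CPM against 9.94 to 12.2 CPM (1.39 ± 0.21, adjusted p = 0.0139). MAMDC2 measured 35.7, 33.8 and 35.5 CPM in TSC, 18.0 and 17.7 CPM in CTC, and 8.71, 7.82 and 9.71 CPM in PC (1.71 ± 0.29, adjusted p = 0.0309).

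The 5 interferon-response genes called were LAMP3, IFI6, OAS1, ISG15 and OAS3, and all fell. IFI6, an interferon-induced membrane protein, was at 72.9, 117 and 63.5 CPM in TSC, 187 and 222 CPM in CTC, and 425, 579 and 404 CPM in PC (-1.84 ± 0.33, adjusted p = 0.0381). Every TSC library was lower than both CTC libraries, and both CTC libraries were lower than all PC libraries. ISG15, the ubiquitin-like protein that is attached to other proteins after interferon exposure, was at 146, 171 and 148 CPM in TSC, 152 and 222 CPM in CTC, and 355, 381 and 276 CPM in PC (-1.003 ± 0.17, adjusted p = 0.0316). OAS1 and OAS3 make the oligoadenylates that switch on RNase L. OAS1 was at 8.02, 9.18 and 4.88 CPM in TSC, 8.98 and 13.7 CPM in CTC, and 24.5, 31.6 and 24.8 CPM in PC (-1.58 ± 0.29, adjusted p = 0.0408). OAS3, its neighbour on chromosome 12, was at 113 to 173 CPM against 273 to 301 CPM (-0.94 ± 0.16, adjusted p = 0.0309). LAMP3, an interferon-induced protein of lysosomes, was low throughout, at 2.48 to 5.88 CPM against 11.5 to 19.6 CPM (-2.01 ± 0.33, adjusted p = 0.0277). None of these 5 genes overlapped between the sides, which the rule for naming required of IFI6, OAS1 and LAMP3.

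Interferon acts through factors that bind the interferon-stimulated response element, here searched as GAAANNGAAA on both strands of the 250 bases before each RefSeq start (GRCh38.p14). These letters occur in 3.07% of 27305 promoters and in 2.15% of the 10623 that belong to tested genes. They occur in 19 of the 30 interferon-list members with a sequence (63.3%). Of called genes with a sequence, 3 of 12 lowered genes and 0 of 12 raised genes hold them. The 3 are ISG15, IFI6 and OAS3, shown 5′ to 3′ on the strand of the gene with the matches in capitals. OAS1 is shown as the fallen neighbour without a match to these exact letters. Close to its start OAS1 reads gaaacgaaa, a closer spacing of GAAA that this search does not cover. Its lack of a match therefore does not show that the element is absent.
ISG15 promoter, chr1:1013247-1013496, plus strand: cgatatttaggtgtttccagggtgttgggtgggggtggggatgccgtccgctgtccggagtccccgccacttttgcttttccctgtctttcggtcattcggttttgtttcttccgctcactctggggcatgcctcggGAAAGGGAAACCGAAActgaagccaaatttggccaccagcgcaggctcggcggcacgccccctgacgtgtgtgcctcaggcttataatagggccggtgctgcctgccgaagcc
IFI6 promoter, chr1:27672193-27672442, minus strand: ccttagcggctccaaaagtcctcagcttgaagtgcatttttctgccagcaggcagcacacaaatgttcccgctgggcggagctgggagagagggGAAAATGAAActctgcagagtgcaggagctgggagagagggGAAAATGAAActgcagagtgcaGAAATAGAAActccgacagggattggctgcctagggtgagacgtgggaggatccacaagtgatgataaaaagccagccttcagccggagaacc
OAS3 promoter, chr12:112938224-112938473, plus strand: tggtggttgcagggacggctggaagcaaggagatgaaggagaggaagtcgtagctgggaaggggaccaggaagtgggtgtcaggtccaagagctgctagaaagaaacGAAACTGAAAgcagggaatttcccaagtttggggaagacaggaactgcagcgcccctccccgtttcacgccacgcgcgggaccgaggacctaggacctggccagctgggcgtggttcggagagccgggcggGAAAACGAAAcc
OAS1 promoter, chr12:112906712-112906961, plus strand: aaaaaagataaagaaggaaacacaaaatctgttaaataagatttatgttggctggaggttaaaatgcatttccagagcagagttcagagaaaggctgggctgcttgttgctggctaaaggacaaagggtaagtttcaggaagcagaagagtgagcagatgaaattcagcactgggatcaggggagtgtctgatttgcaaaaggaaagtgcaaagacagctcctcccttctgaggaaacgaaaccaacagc
In ISG15 a pair of overlapping matches begins 113 and 107 bases before the start. IFI6 has 3 matches, at 156, 115 and 93 bases, and OAS3 has 2, at 143 and 12 bases. A match is a description of the letters and no evidence of binding.

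HES1, a transcriptional repressor that Notch signalling induces, was at 28.5, 35.0 and 32.9 CPM in TSC, 58.9 and 12.7 CPM in CTC, and 99.5, 103 and 100.2 CPM in PC. All 5 libraries were well below PC, although the CTC libraries lay far from each other, and the change was -1.67 ± 0.31 (adjusted p = 0.0424). The Notch effector complex binds through CSL, whose core TGGGAA was searched on both strands and occurs in 21.1% of all promoters. It occurs in 3 of the 14 Notch list members with a sequence (21.4%), in 3 of 12 lowered genes (25.0%) and in 2 of 12 raised genes (16.7%), which are shares near that of all promoters. HES1 holds a pair of such cores, at 84 and 70 bases before its start, in capitals here.
HES1 promoter, chr3:194135898-194136147, plus strand: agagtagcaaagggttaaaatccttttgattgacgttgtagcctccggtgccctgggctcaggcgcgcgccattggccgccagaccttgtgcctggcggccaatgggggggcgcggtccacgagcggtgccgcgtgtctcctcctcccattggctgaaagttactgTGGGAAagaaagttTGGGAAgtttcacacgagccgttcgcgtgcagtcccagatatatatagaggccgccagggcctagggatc
EFNB2, a transmembrane ligand of Eph receptors, was at 94.7, 103 and 120 CPM in TSC, 162 and 97.6 CPM in CTC, and 209, 258 and 281 CPM in PC (-1.13 ± 0.19, adjusted p = 0.0277).

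BAMBI, a decoy receptor that dampens TGF-beta signals and is induced by them, was at 14.7, 14.6 and 18.6 CPM in TSC, 28.9 and 18.1 CPM in CTC, and 51.3, 63.6 and 61.7 CPM in PC. It had the smallest adjusted p among the falls (-1.70 ± 0.22, adjusted p = 0.0069), and the highest of the 5 libraries was again CTC replicate 1. CCN1, a matrix-associated signalling protein and a target of both YAP and serum response factor, was at 23.4, 41.1 and 46.7 CPM in TSC, 49.9 and 26.5 CPM in CTC, and 89.4, 137 and 119 CPM in PC (-1.65 ± 0.24, adjusted p = 0.0139). DUSP6, the phosphatase by which ERK limits its own activity, was at 76.9, 62.1 and 103 CPM in TSC, 101 and 35.8 CPM in CTC, and 172, 222 and 238 CPM in PC (-1.50 ± 0.27, adjusted p = 0.0372). In these 3 genes the lowest PC library exceeded the highest of the 5 by at least 1.67 times.

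ANKRD37, a target of the hypoxia-inducible factors, was at 6.02, 9.67 and 11.8 CPM in TSC, 9.97 and 11.5 CPM in CTC, and 23.7, 26.6 and 28.8 CPM in PC (-1.42 ± 0.24, adjusted p = 0.0316). TSC replicate 1 was the lowest of the 5 libraries. The phosphoinositide-binding adaptor gene PLEKHA2 was at 21.4 to 33.9 CPM against 55.5 to 71.0 CPM (-1.23 ± 0.19, adjusted p = 0.0154). NEK6, a mitotic kinase, was at 24.0 to 45.9 CPM against 68.9 to 89.7 CPM (-1.09 ± 0.21, adjusted p = 0.0486). OSBPL10, of the oxysterol-binding family, was at 42.6 to 82.8 CPM against 104 to 141 CPM (-1.16 ± 0.20, adjusted p = 0.0324). ARHGAP26, an inactivator of small GTPases, was at 74.1 to 105 CPM against 144 to 179 CPM (-0.92 ± 0.16, adjusted p = 0.0324). None of these 5 genes overlapped between the sides either, which the rule for naming required of all but ARHGAP26.

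Setting each group against PC by itself gave 72 genes for TSC (0.505%, 32 higher and 40 lower) and 559 for CTC (3.92%, 200 higher and 359 lower). These fits share the PC libraries, so the values are set side by side and no overlap of the calls is given. TSC and CTC themselves differed in 128 genes (0.898%). Of the 32 genes, the test of TSC against CTC called IFI6 alone, which was lower by 2.47 ± 0.23 in TSC and by 1.19 ± 0.26 in CTC (difference -1.28 ± 0.25, adjusted p = 0.0293). For the other 31 this test gave no call, which does not show that the effects were equal. MAMDC2 was raised by 1.99 ± 0.22 in TSC and 1.02 ± 0.25 in CTC, a difference of 0.97 ± 0.26 (adjusted p = 0.0955). MAN1A1 was raised by 2.31 ± 0.28 in TSC and 1.25 ± 0.30 in CTC, a difference of 1.06 ± 0.32 (adjusted p = 0.122). TPPP3 leaned the other way, at 3.68 ± 0.50 in TSC and 4.82 ± 0.53 in CTC. For PLPP1 the effects were 2.94 ± 0.36 and 2.88 ± 0.39, for CPA4 2.59 ± 0.36 and 2.74 ± 0.39, and for CCN1 -1.62 ± 0.27 and -1.71 ± 0.34.

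**Figure D2:**
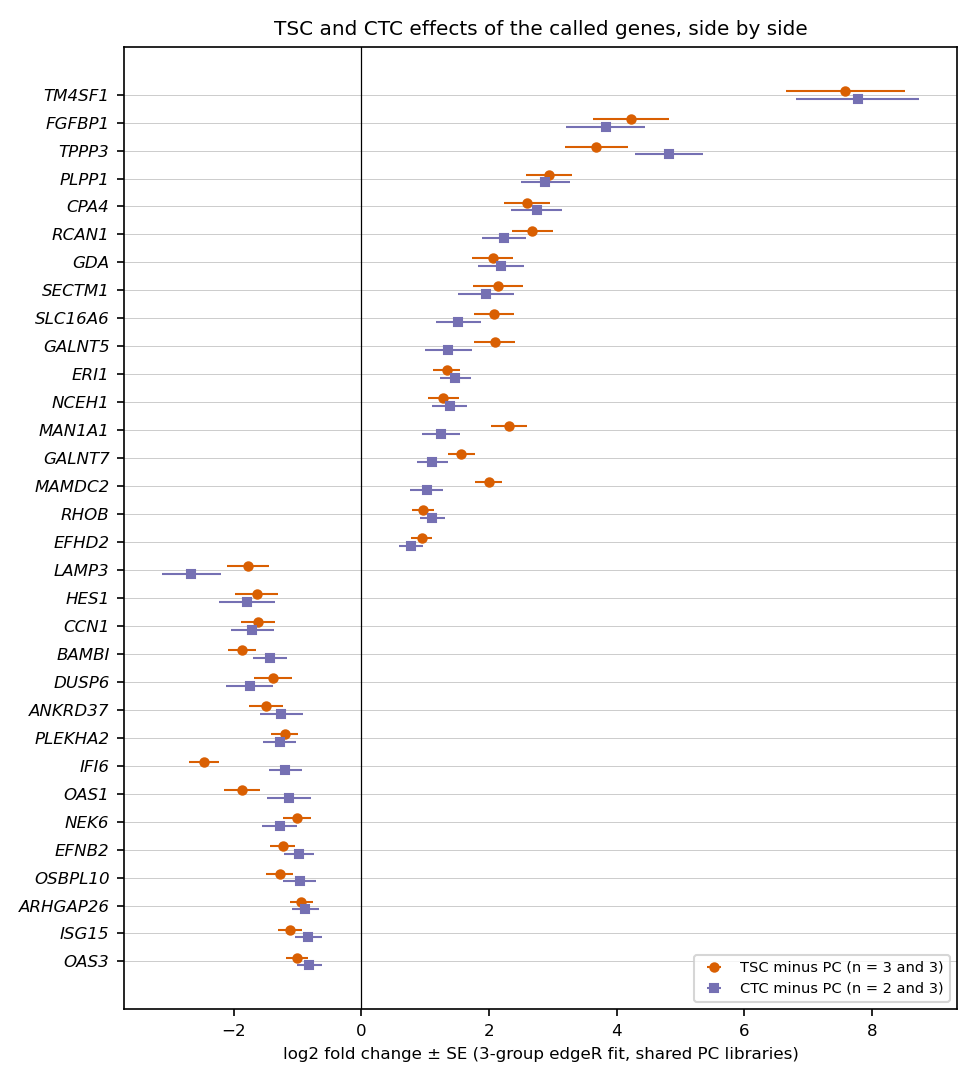
Log2 fold change of TSC and of CTC against PC for the 32 called genes, from the fit with 3 groups; bars are SE and both effects use the same PC libraries. Both effects have the same sign in each gene, and their SE bars are farthest apart in IFI6 and MAMDC2.

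Gene lists for programmes that could differ between blood and tumour were then described by their counts and medians, beside all tested genes. The interferon-response list had 40 tested members. It held 5 called genes, all lower (12.5%, against 0.105% of all tested genes), and 17 members (42.5%) with all 5 libraries below PC, against 5.13% of all tested genes. Its median log2 fold change was -0.81, at -1.12 for TSC and -0.49 for CTC. The median by library was -1.21, -0.87 and -1.15 in TSC and -0.30 and -0.54 in CTC, relative to the PC mean, against -0.14 to 0.16 in PC. All 5 libraries were thus below PC, the CTC libraries less far. In bulk samples, fewer cells of a kind and less RNA per cell cannot be told apart. Antigen presentation genes, many of them also interferon-inducible, had 0 called of 19 tested (0 at an unadjusted p under 0.05), a median of -0.00 and 0 members outside PC in all 5 libraries.

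The hypoxia-response list had ANKRD37 as its single call among 29 tested members. All 29 had a negative log2 fold change, the median was -0.84, and 14 members (48.3%) had all 5 libraries below PC. SLC2A1, the glucose transporter gene, was at 517, 601 and 713 CPM in TSC, 733 and 241 CPM in CTC, and 1078, 1363 and 1911 CPM in PC, with no overlap (-1.37 ± 0.28, adjusted p = 0.071). PFKFB4, a regulator of glycolysis, was at 14.1 to 55.7 CPM against 77.3 to 111 CPM (-1.53 ± 0.32, adjusted p = 0.075). ADM, the vasodilator adrenomedullin gene, was at 7.15 to 84.8 CPM against 122 to 213 CPM (-2.14 ± 0.48, adjusted p = 0.1). STC2, a secreted glycoprotein gene, was at 40.1 to 66.8 CPM against 86.5 to 124 CPM (-0.90 ± 0.20, adjusted p = 0.1). None of these 4 was called, although none overlapped. Without 1 library at a time, the list's median ran from -0.91 to -0.56.

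Among 27 tested immediate early genes, which growth factors and stress switch on within minutes, only CCN1 was called, and 11 (40.7%) had all 5 libraries below PC (median -0.73, at -0.47 for TSC and -1.07 for CTC). The median was -0.48 without CTC replicate 2 and -0.97 without TSC replicate 2. FOSB was at 170, 179 and 193 CPM in TSC, 83.8 and 56.4 CPM in CTC, and 281, 509 and 449 CPM in PC (-1.58 ± 0.33, adjusted p = 0.0747). Its effects differed, at -1.19 in TSC and -2.60 in CTC (adjusted p of the difference 0.0225). JUNB, its partner in the AP-1 factor, was at 81.3 to 189 CPM against 259 to 294 CPM (-1.09 ± 0.22, adjusted p = 0.07). EGR2 was at 5.13, 11.8 and 14.02 CPM in TSC, 22.9 and 0.10 CPM in CTC, and 43.5, 73.2 and 77.7 CPM in PC (-2.79 ± 0.65, adjusted p = 0.106). TSC replicate 2 was nearest to PC in the list's median, at -0.13, within the PC range of -0.23 to 0.12.

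Feedback inhibitors and targets of other pathways followed with 1 call or none each. In the ERK feedback list, 6 of 21 tested members (28.6%) had all 5 libraries below PC and 1 above, with a median of -0.20, which ran from -0.40 (without TSC replicate 2) to -0.12 (without PC replicate 3) over the fits that left out 1 library. DUSP6 was its call; SPRY4, an inhibitor of receptor tyrosine kinase signalling, was at 42.1 to 107 CPM against 132 to 158 CPM (-0.93 ± 0.24, adjusted p = 0.141), and ETV4, a target transcription factor, at 15.6 to 28.6 CPM against 36.0 to 49.9 CPM (-0.93 ± 0.23, adjusted p = 0.12). The TGF-beta and BMP list had 7 of 27 members (25.9%) below PC in all 5 libraries and a median of -0.43, with BAMBI as its call. SMAD7, the inhibitor of TGF-beta receptors, was at 2.90, 8.33 and 9.13 CPM in TSC, 16.0 and 1.05 CPM in CTC, and 23.8, 32.0 and 35.9 CPM in PC (-2.24 ± 0.52, adjusted p = 0.1). SMAD6, the inhibitor of BMP receptors, was at 0.10 to 8.98 CPM against 19.8 to 23.9 CPM (-2.50 ± 0.64, adjusted p = 0.132). For PMEPA1, a TGF-beta target, CTC replicate 1 at 13.0 CPM overlapped PC at 12.9 to 29.5 CPM.

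Of 15 tested Notch pathway genes, 4 (26.7%) had all 5 libraries below PC, the median was -0.45, and HES1 was the call. JAG1, a Notch ligand gene, was at 64.0, 61.0 and 89.7 CPM in TSC, 106 and 32.9 CPM in CTC, and 170, 158 and 187 CPM in PC (-1.32 ± 0.27, adjusted p = 0.0726). In the Wnt list, 3 of 14 members (21.4%) were below PC in all 5 libraries and 0 were called (3 lower and 0 higher at an unadjusted p under 0.05). They were SOX9, a transcription factor of intestinal crypts, at 78.0 to 211 CPM against 312 to 501 CPM (-1.41 ± 0.30, adjusted p = 0.0761), and RNF43 and ZNRF3, which remove Wnt receptors from the membrane. RNF43 was at 20.3, 25.97 and 25.7 CPM in TSC, 17.0 and 5.05 CPM in CTC, and 39.9, 51.7 and 58.1 CPM in PC (-1.40 ± 0.37, adjusted p = 0.148). Of YAP and TEAD targets, 4 of 23 (17.4%) lay below PC in all 5 libraries, with CCN1 called and AMOTL2, a scaffold of junctions, at 30.3 to 45.9 CPM against 59.6 to 85.6 CPM (-0.78 ± 0.19, adjusted p = 0.114). Their median was -0.12, and it was -0.25 without CTC replicate 1 and -0.23 without PC replicate 1.

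**Figure D3:**
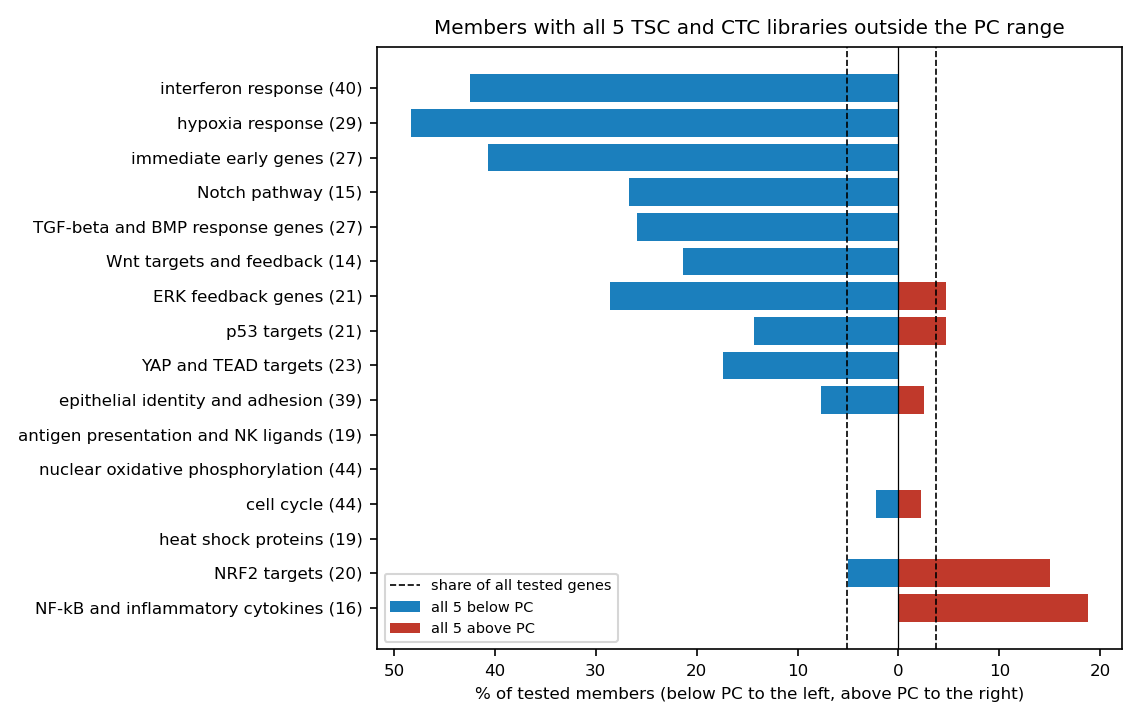
Share of the tested members of each list, in %, whose 5 TSC and CTC libraries all lie below (left) or all above (right) the 3 PC libraries; dashed lines mark the same shares over all 14255 tested genes (5.13% and 3.75%). The hypoxia (48.3%), interferon (42.5%) and immediate early (40.7%) lists have the largest shares below, and the NF-kB list (18.8%) the largest share above, of the lists plotted.

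**Figure D4:**
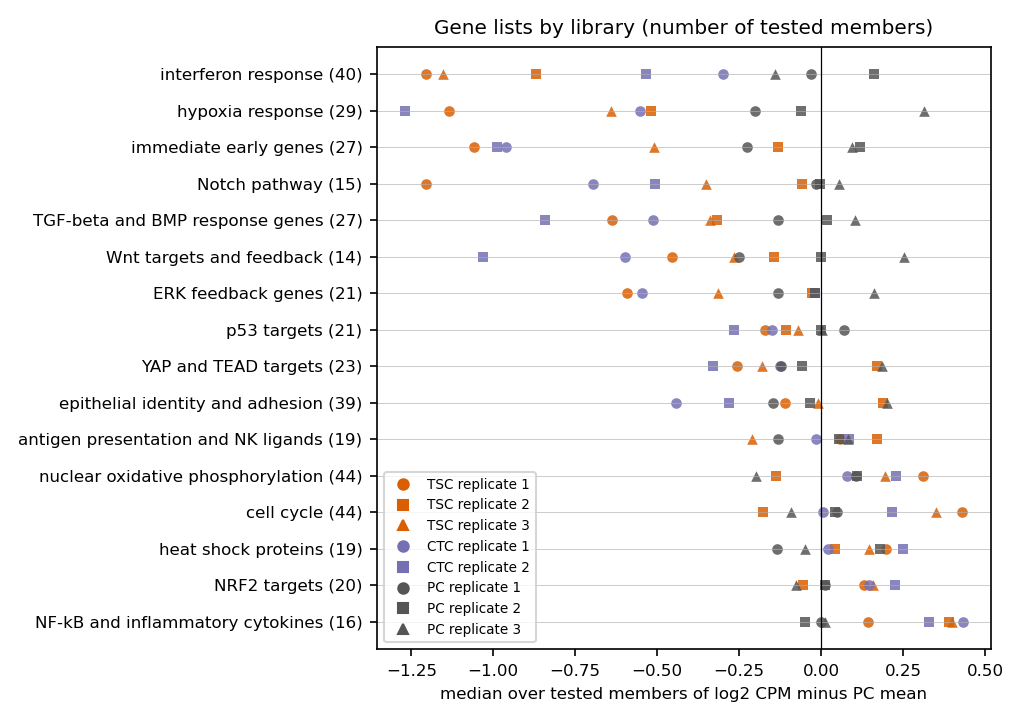
Median over the tested members of each list of log2 CPM minus the PC mean, by library. All 5 TSC and CTC libraries lie below the PC libraries for the interferon, hypoxia, Notch, TGF-beta and p53 lists and above them for the NF-kB list. The gap is narrow for Notch (TSC replicate 2 at -0.057, lowest PC -0.015) and p53 (TSC replicate 3 at -0.071, lowest PC 0.001).

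Lists whose calls or members lay above PC were described in the same way. Of 19 tested stem cell and surface markers, TM4SF1 was called, and 3 members (15.8%) had all 5 libraries above PC, against 3.75% of all tested genes. CD9, a tetraspanin of the cell surface, was at 463, 397 and 338 CPM in TSC, 231 and 467 CPM in CTC, and 213, 212 and 178 CPM in PC (0.92 ± 0.21, adjusted p = 0.1). CD44, the hyaluronan receptor gene, was at 1647 to 2703 CPM against 1493 to 2046 CPM and overlapped, and PROM1 was at 22.9 to 41.9 CPM against 36.5 to 41.4 CPM. ITGB4, a hemidesmosomal integrin of the same list, went the other way, at 199 to 487 CPM against 508 to 901 CPM (-1.15 ± 0.27, adjusted p = 0.101). Of 21 tested matrix proteases, CPA4 was called higher, and 2 members (9.52%) lay above and 4 (19%) below PC in all 5 libraries. ADAM10, a sheddase, was among those above, at 173 to 238 CPM against 135 to 167 CPM (0.54 ± 0.16, adjusted p = 0.21).

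The NF-kB and cytokine list had 0 calls among 16 tested members (4 higher at an unadjusted p under 0.05), 3 of them (18.8%) above PC in all 5 libraries, and a median of 0.39. LCN2, an iron-siderophore carrier gene, was at 11.1, 52.6 and 13.5 CPM in TSC, 4.99 and 21.0 CPM in CTC, and 3.85, 3.31 and 3.48 CPM in PC (2.62 ± 0.55, adjusted p = 0.075). NFKBIA, the inhibitor of NF-kB that NF-kB induces, was at 53.9, 62.3 and 58.8 CPM in TSC, 93.8 and 98.5 CPM in CTC, and 43.2, 41.4 and 41.8 CPM in PC (0.79 ± 0.22, adjusted p = 0.176). NRF2 targets had 3 of 20 (15.0%) above PC in all 5 libraries and 0 calls (5 higher and 1 lower at an unadjusted p under 0.05), with a median of 0.09 (0.06 to 0.20 without single libraries). TXNRD1, a thioredoxin reductase gene, was at 352 to 671 CPM against 256 to 304 CPM (0.80 ± 0.20, adjusted p = 0.127).

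Genes tied to detachment and shear, 28 tested, had 0 calls (8 higher and 4 lower at an unadjusted p under 0.05). In all 5 libraries, 3 members (10.7%) lay above PC and 4 (14.3%) below. Over all tested genes these shares were 3.75% and 5.13%. The list's median was 0.12 (0.08 without CTC replicate 2). CAV1 and CAV2, which form the membrane pits that flatten under tension, were above PC in all 5 libraries. CAV1 was at 845, 608 and 621 CPM in TSC, 467 and 668 CPM in CTC, and 358, 381 and 382 CPM in PC (0.78 ± 0.17, adjusted p = 0.0988). CAV2 was at 235 to 296 CPM against 149 to 173 CPM (0.65 ± 0.15, adjusted p = 0.1). GJA1, the connexin gene of gap junctions, was at 41.0, 25.8 and 13.3 CPM in TSC and 10.2 CPM in CTC replicate 2, but at 0 in CTC replicate 1, where a count of 0 allows up to 2.99 CPM, against 1.59, 3.50 and 2.65 CPM in PC (2.88 ± 0.68, adjusted p = 0.111). GALNT5 was the single call among 22 tested genes of adhesion to endothelium and platelets. GCNT3, which branches mucin glycans in that list, was at 4.01, 23.1 and 4.88 CPM in TSC, 1.00 and 13.7 CPM in CTC, and 1.34, 0.92 and 1.61 CPM in PC (2.94 ± 0.70, adjusted p = 0.111), so CTC replicate 1 was within PC.

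No member was called in the lists of epithelial identity (39 tested, median -0.07), mesenchymal identity (19, 0.18), integrins (28, -0.07), coagulation (23, -0.16), complement regulators (7, 0.09), p53 targets (21, -0.15), cell cycle (44, 0.25), nuclear oxidative phosphorylation (44, 0.14), heat shock proteins (19, 0.20), the unfolded protein response (22, 0.03), cholesterol synthesis (25, 0.12) and self-seeding mediators (8, 0.14). In these 12 lists between 0 and 7 members reached an unadjusted p under 0.05 in the same direction. Leaving out single libraries kept these medians between -0.26 and 0.36. The TSC and CTC medians had opposite signs in 4 of the lists, a contrast that was not tested for lists. For epithelial identity they were 0.07 and -0.43, with 2 of 39 members called lower in CTC, against 2.52% of all tested genes. In that list both CTC libraries (-0.44 and -0.28) lay below the PC range of -0.15 to 0.20. For self-seeding mediators the TSC and CTC medians were 0.22 and -0.94, with 3 of 8 members called lower in CTC, beside the same 2.52%. The library medians of that list were -0.85, 0.06 and 0.29 in TSC and -0.78 and -1.10 in CTC. Its pooled median was -0.63 with TSC and CTC weighted equally and 0.39 with no filter on low counts. For cholesterol synthesis they were 0.26 and -0.14, and for complement regulators -0.11 and 0.02. KRT7, a keratin gene, was below PC in all 5 libraries, at 8.25 to 15.2 CPM against 20.6 to 25.3 CPM (-0.98 ± 0.26, adjusted p = 0.146). CDH1, the E-cadherin gene, was at 82.3 to 159 CPM and overlapped PC at 135 to 213 CPM (-0.40 ± 0.21, adjusted p = 0.463). S100A10, a plasminogen-binding partner of annexin, was above PC in all 5, at 528 to 955 CPM against 406 to 474 CPM (0.71 ± 0.20, adjusted p = 0.173). F3, the tissue factor gene, and CD47, the signal that restrains phagocytes, overlapped, at 70.8 to 202 against 89.3 to 105 CPM and at 24.1 to 41.9 against 23.2 to 36.4 CPM. The proliferation marker MKI67 spread from 186 to 1130 CPM on the TSC and CTC side, around the 798 to 933 CPM of PC. KRT20 and LGR5 did not pass the filter on low counts.

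Transcripts of other cells moved with CTC. Summed over a list of 31 leukocyte genes, of which 12 were tested and 8 were at 0 in all libraries, the level was 34.5, 56.1 and 29.0 CPM in TSC, 576 and 215 CPM in CTC, and 18.4, 19.96 and 25.1 CPM in PC. PTPRC, the pan-leukocyte gene, reached 31.9 and 7.63 CPM in CTC, against at most 0.503 CPM elsewhere, with counts of 0 in TSC replicates 1 and 2 and in PC replicates 2 and 3. The 21 erythroid genes, 9 of them tested and 9 at 0 throughout, summed to 331, 288 and 267 CPM in TSC, 492 and 674 CPM in CTC, and 283, 257 and 244 CPM in PC. HBB, beta-globin, reached 164 and 209 CPM in CTC, against at most 0.754 CPM elsewhere. The hepatocyte list reached 276 and 136 CPM in CTC against 49.4 to 87.7 CPM elsewhere, with APOE, which macrophages also express, at 208 and 98.8 CPM against at most 4.34 CPM. VIM, FN1 and ZEB2, in the mesenchymal list and also transcribed in leukocytes or other stromal cells, followed: VIM was at 221 and 104 CPM in CTC, against 1.75 to 8.86 CPM in TSC and PC. TSC was thus near PC in these markers, with leukocyte sums still above PC in all 3 TSC libraries. The part of such cells in the shared differences was not tested.

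**Figure D5:**
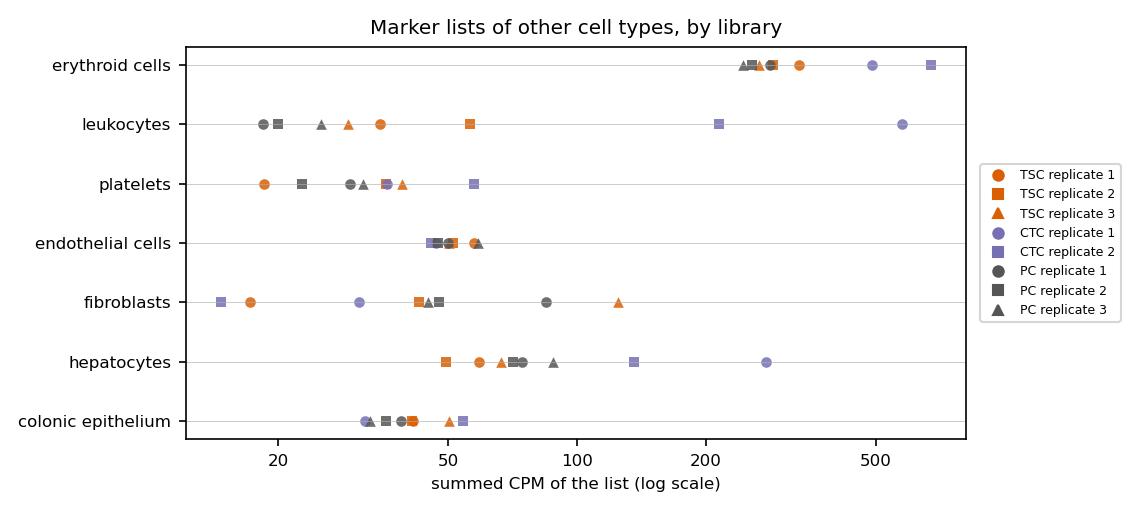
Summed CPM of 7 marker lists of other cell types, by library, on a log scale. Leukocyte genes reach 576 and 215 CPM in the CTC libraries against 18.4 to 56.1 CPM in TSC and PC.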

How the data were processed

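RNA of 8 libraries (3 TSC, 2 CTC, 3 PC) was measured. Per the labels' protocols, RNA was taken with a column kit, checked for integrity, cleared of ribosomal RNA and run on an Illumina sequencer. The authors deposited raw whole-number counts per gene. STAR 2.5.3a, featureCounts 1.5.3 and the build hg38 are named in the submitters' processing notes. Annotation, strand setting and any removal of host reads are not stated in any source used here, so reads of a gene and of an overlapping antisense partner cannot be told apart.

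From these counts, genes passing filterByExpr by group (14255 of 22986 with a count) were fitted with edgeR 4.0.16 in R 4.3.3 (TMM, glmQLFit, glmQLFTest). The main fit has 2 levels, TSC with CTC against PC, so a gene that differs between TSC and CTC adds to its spread. A fit with 3 levels gave the effects of TSC and of CTC. Calls have an adjusted p under 0.05, with the Benjamini-Hochberg method over every tested gene, and SE is the log2 fold change divided by the square root of F. CPM values use TMM factors. Log2 CPM values used a prior count of 2. No 2 libraries agreed within sampling noise (lowest chi-square per degree of freedom 8.04).

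The 5 libraries and the 35 gene lists were chosen with earlier results of these data known. Named genes are the 12 largest rises and 12 largest falls (ranked by the smaller of the TSC and CTC effects) among calls without overlap whose average log2 CPM is at least 3, up to 5 members of a list by adjusted p, and a set of markers. Some genes under this rule are not reported here but stay in the lists and in the counts of refits. TPPP3, FGFBP1, SECTM1, MAN1A1 and ARHGAP26 were added after their values were seen. Of 10 motifs searched in promoters, the 2 shown were chosen after their matches were seen, and 24 of 32 called genes had a sequence. On simulated counts (13817 genes), 70 of 100 genes changed 2-fold and 96 of 100 changed 4-fold were recovered, with 11 false among 177 calls. The changed genes were drawn from the better expressed, and the simulated counts held no difference between TSC and CTC. These shares therefore need not hold for the libraries used here. Alternatives were other size factors, filters, DESeq2 1.42.0, limma-voom (limma 3.58.1), a replicate block, thinning to the shallowest library, removal of mitochondrial and small noncoding genes, a fold minimum, equal weights for TSC and CTC, and each library left out.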

Additional observations from a re-analysis of the deposited data

Results flagged for a closer look

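In 108 named genes, the 5 TSC and CTC libraries were examined for a single library far from the others, and 10 such values were found; chance gives about 1 in 20 groups. CTC replicate 1 was apart from the other 4 libraries in FGFBP1 (2.99 CPM, next 48.4), PLPP1 (13.0 CPM, next 37.3), RCAN1 (32.9 CPM, next 91.8), SECTM1 (3.99 CPM, next 8.89), ALDH1A3 (18.0 CPM, next 53.9) and GJA1 (0 CPM, next 10.2). In each of these 6 genes it was the lowest of the 5. CTC replicate 2 was apart in RNF43 (5.05 CPM, next 17.0). TSC replicate 1 was apart in AMOTL2 (30.3 CPM, next 42.3) and CAV2 (296 CPM, next 249), and TSC replicate 2 in CCNA2, a cyclin of DNA replication (93.7 CPM, next 157).

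The TSC and CTC effects against PC differed in 11 of these genes, by the test of TSC against CTC in edgeR's quasi-likelihood fit. The same test called 0.898% of all tested genes, and the named genes, markers of other cells among them, are no random sample of these. IFI6 (adjusted p = 0.0293) was lower in TSC than in CTC, and FOSB (adjusted p = 0.0225) was lower in CTC than in TSC. The other 9 genes were higher in CTC than in TSC: VIM (adjusted p = 4.78e-05), HBB (adjusted p = 8.99e-07), PTPRC (adjusted p = 0.0345), ZEB2 (adjusted p = 0.00202), FN1 (adjusted p = 0.00035), DOCK2 (adjusted p = 0.000199), LCP1 (adjusted p = 0.000917), SPI1 (adjusted p = 0.000382) and APOE (adjusted p = 4.78e-05). DOCK2, LCP1 and SPI1 belong to the leukocyte list, and SPI1 encodes a transcription factor of myeloid cells. In these 9 genes the log2 difference, TSC minus CTC, ran from -4.45 for FN1 to -9.08 for HBB.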

How the results depend on the processing

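For TSC and CTC together against PC, the count of 32 (30 outside the PC range in all 5 libraries) became 537 (293) with no filter, 246 (216) with DESeq2's Wald test, 305 (234) with limma-voom, 7 (6) with a fold minimum of 1.5 and 411 (293) with TSC and CTC weighted equally. Its split of 17 higher and 15 lower became 167 and 370, 104 and 142, 111 and 194, 6 and 1, and 115 and 296 in that order, and 97 and 258 without TSC replicate 2. The count stayed within 1.5 times under the other 6 settings, though thinning gave 10 higher and 28 lower and called 19 of the 32 main genes. With the replicate block it was 32 (27), with 25 of the 32 main calls among them. The main fit did not treat libraries with the same number as pairs. Correlations of their deviations from the group mean ran from -0.134 to 0.094. The deviations of 2 CTC libraries always mirror each other, so these values cannot settle whether same-numbered libraries share a source. Leaving out single libraries gave 0 to 355 (0 to 339 outside the PC range). TSC against PC, 72 genes, gave 355 with no filter, 193 with DESeq2, 553 with limma-voom, 19 with the fold minimum and 10 to 153 without single libraries. CTC against PC, 559 genes, gave 1535, 1132, 1660 and 141 in that order, 261 with the block, 277 after thinning and 35 to 1575 without single libraries. TSC against CTC, 128 genes, gave 728, 385, 1137 and 47, 50 with the stricter filter, 61 with the block, 60 after thinning and 36 to 696 without single libraries. Fits that leave CTC with a single library assume that it varies like the other groups. For named genes, 1526 of these refits gave the same side of the threshold, 247 passed anew and 153 no longer passed, and 0 changed sign past the threshold. The cause of these changes was not tested. A count of 0 in CTC replicate 1 allows up to 2.99 CPM.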
